A study of Mus musculus with 6 samples.

Results

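The Six-family, Eya and Dach genes of the developing mouse palate were followed as a network of 9 genes: the transcription factor genes Six2, Six4 and Six5, the coactivator genes Eya1, Eya2, Eya3 and Eya4, and the cofactor genes Dach1 and Dach2. They were chosen by name and matched by symbol to the Ensembl identifiers of the count tables, with the version dropped. All 9 were found among the 56691 identifiers, and all 9 were among the 15673 genes that had enough counts to be tested. Bulk RNA-seq had been made from palatal shelves dissected from C57BL/6J mouse embryos at embryonic day (E) 14.0, with 3 libraries from the anterior 1/3 (anterior palate) and 3 from the posterior 1/3 (posterior palate). All 6 libraries were of this inbred strain and stage, and the labels list no mutant allele or treatment. The libraries are described as biologically independent, but the number of embryos behind each and their sex are not given in the sources used here.

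In the retinal determination network, first worked out in fly eye development, Six-family proteins bind DNA through a homeodomain, Eya proteins are recruited by them as coactivators that also carry phosphatase activity, and Dach proteins join the complex as cofactors that often repress transcription. In vertebrates the same genes act in kidney, ear, muscle and craniofacial development. Six2 holds nephron progenitors in an undifferentiated state in the kidney, and human EYA1 is the main gene of branchio-oto-renal syndrome, in which cleft palate can occur. The question here was whether the Six-family genes and their Eya and Dach partners had the same regional direction in the palate.

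The Six-family gene and the Dach gene that were called had opposite directions. Six2 was 1.83-fold higher in the anterior palate, and Dach1 was 4.79-fold higher in the posterior palate. These were the 2 of the 9 genes called at an adjusted p under 0.05, beside 7.46% of all genes tested. The call of Dach1 was kept in every alternative tried, while that of Six2 was lost in several, among them 5 of the 6 fits that left out a library. Eya1 was 2.04-fold higher in the anterior palate with an adjusted p just over that threshold in edgeR. The other 6 genes did not pass the test.

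Each family was read from transcripts that share only short stretches of sequence, which bears on whether reads of one paralog could be counted for another. The longest run of identical bases between transcripts of 2 paralogs was 17 to 32 bases over the 10 pairs. In the Eya family the longest coding run shared by all 4 genes was 12 bases, and in the Dach family it was 20 bases. These runs are shown in capitals in the next lines, with up to 20 coding bases on each side in lower case, read 5′ to 3′ from the longest coding transcript of each gene in GENCODE M21 (GRCm38).
Eya1: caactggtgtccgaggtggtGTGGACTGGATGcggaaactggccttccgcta
Eya2: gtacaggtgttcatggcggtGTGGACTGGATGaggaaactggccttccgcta
Eya3: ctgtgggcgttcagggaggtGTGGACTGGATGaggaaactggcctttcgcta
Eya4: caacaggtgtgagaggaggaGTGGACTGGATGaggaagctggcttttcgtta
Dach1: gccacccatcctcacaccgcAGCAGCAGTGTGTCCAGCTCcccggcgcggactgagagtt
Dach2: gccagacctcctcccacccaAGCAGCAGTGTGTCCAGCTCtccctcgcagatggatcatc

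The capitals lie at chr1:14184416-14184427 on the minus strand in exon 14 of 18 of Eya1, at chr2:165763779-165763790 on the plus strand in exon 12 of 16 of Eya2, and at chr4:132707045-132707056 on the plus strand in exon 13 of 17 of Eya3. In Eya4 they lie at chr10:23116620-23116631 on the minus strand in exon 16 of 20. In Dach1 they lie at chr14:97903186-97903205 on the minus strand in exon 6 of 12, and in Dach2 at chrX:113750352-113750371 on the plus strand in exon 7 of 13. The 3 Six-family genes shared a coding run of 26 bases in the homeobox. The read length is not given in the sources used here.

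The stretches of DNA just upstream of the 2 genes that were called are shown because their transcripts moved in opposite directions. CpG dinucleotides are in capitals, and each sequence is written 5′ to 3′ on the strand of its gene, from RefSeq (GRCm38.p6), ending before the first transcribed base of the gene in both RefSeq and GENCODE.
Six2, chr17:85688275-85688504, minus strand: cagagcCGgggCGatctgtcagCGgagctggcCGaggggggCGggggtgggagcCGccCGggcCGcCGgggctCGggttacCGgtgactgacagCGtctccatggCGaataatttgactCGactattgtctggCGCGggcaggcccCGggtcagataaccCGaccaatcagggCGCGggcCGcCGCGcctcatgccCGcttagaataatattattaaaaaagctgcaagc
Dach1, chr14:98169766-98170015, minus strand: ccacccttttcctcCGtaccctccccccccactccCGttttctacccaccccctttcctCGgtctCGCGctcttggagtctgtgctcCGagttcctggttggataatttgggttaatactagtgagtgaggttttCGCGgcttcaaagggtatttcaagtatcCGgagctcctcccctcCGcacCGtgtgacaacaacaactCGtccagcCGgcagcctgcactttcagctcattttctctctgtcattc

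The 230 bases upstream of Six2 held 24 CpG, and the 250 bases upstream of Dach1 held 13. In the RefSeq promoter table used here, 10 promoters (300 bases each) were matched to 7 of the 9 genes, all but Eya1 and Eya2. Their median GC content was 62% and their median CpG number 16.5, beside 52.7% and 7 over all 32851 promoters in the table. The MEF3 element TCAGGTTTC, a sequence known to be bound by Six-family proteins in muscle genes, was searched on both strands. It was found in 0.429% of all promoters and in 1 of the 10, that of Six4, on the plus strand of chromosome 12 (chr12:73113336-73113344) and so opposite to the gene, 90 bases before a start that RefSeq lists and downstream of the GENCODE M21 start of the gene. The element is in capitals in the 29 bases around it, written on the strand of Six4.
Six4, chr12:73113326-73113354, minus strand: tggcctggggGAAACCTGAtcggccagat

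Its shorter core TCAGGTT, which lies within the longer element, was in 4.07% of all promoters and in no other promoter of these genes. Another sequence bound by Six-family proteins, GGTATCA, was in 1.49% of all promoters and in 0 of the 10. A match of letters is a description of the window and does not show binding.

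Per library, 11378736 to 15172733 reads were counted to genes on the strand of the transcript. The limit that a count of 0 allows, taken as 3 counts per library, came to 0.198 to 0.264 CPM (counts scaled to 1000000 per library), and it covers counting error only. The labels of the regions were checked with Shox2, an anterior palate gene, and Meox2, a posterior palate gene. Shox2 had a mean of 386 CPM in the anterior palate and 11.7 CPM in the posterior palate, and Meox2 had 7.83 and 192 CPM. Posterior replicates 2 and 3 stood apart from the other 4 libraries in technical measures. Reads from mitochondrial genes were 0.973% and 1.14% of counts in these 2 libraries and 2.70% to 2.97% in the other 4, and reads mapping to several places were 6.12% and 5.94% against 8.45% to 8.77%. A chi-square per gene between replicates was 54.0 and 69.0 for posterior replicate 1 against posterior replicates 2 and 3, and 3.48 to 9.52 for all other pairs. Because posterior replicate 1 was the only posterior library with the technical measures of the anterior libraries, its value is given below for each of the 9 genes.

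Six2 encodes a homeodomain factor expressed in craniofacial and kidney mesenchyme (chr17:85684277-85688274, minus strand). It had 189, 229 and 258 CPM in the anterior libraries and 161, 107 and 102 CPM in the posterior libraries. The lowest anterior library was above the highest posterior library, so the regions did not overlap, and posterior replicate 1 was nearest to the anterior values. The means were 225 ± 34.7 CPM in the anterior palate and 123 ± 32.4 CPM in the posterior palate (SD, n = 3 each). The log2 fold change, posterior over anterior, was -0.87 (SE 0.20, 95% interval -1.33 to -0.41), with an adjusted p of 0.0415 in the quasi-likelihood test of edgeR. Called genes with this direction made up 2.59% of all genes tested. A term that set posterior replicates 2 and 3 apart from the other libraries left posterior replicate 1 as the only posterior library behind the regional difference, with its spread taken from the anterior libraries and from posterior replicates 2 and 3, and this holds wherever that term is named. Under it the log2 fold change was -0.49 and the adjusted p in edgeR was 0.111. With the replicate number as a block it was -0.89 and the adjusted p was 0.0808 in edgeR. When any library but posterior replicate 1 was left out the call was lost, with log2 fold changes of -0.98 to -0.75. Without posterior replicate 1 the call was kept at -1.10, in a fit that called 46.4% of all genes. In bulk tissue, fewer cells of a type and less RNA per cell cannot be told apart.

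Six4, a Six-family factor that acts with other family members in muscle progenitors (chr12:73099609-73113456, minus strand), had 40.1, 34.6 and 50.4 CPM in the anterior and 28.3, 31.4 and 33.3 CPM in the posterior libraries. Again every anterior library was above every posterior one, but the gap between anterior replicate 2 and posterior replicate 3 was smaller than the spread within the anterior palate. Its log2 fold change of -0.43 (SE 0.15, 95% interval -0.78 to -0.070) had an adjusted p of 0.141 in edgeR and was not called. With a correction for exon length in each library, it was -0.68 with an adjusted p of 0.0285.

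Six5, which lies beside the myotonic dystrophy kinase gene Dmpk (chr7:19094594-19098549, plus strand), had 43.8, 44.9 and 48.5 CPM in the anterior and 45.2, 46.0 and 47.2 CPM in the posterior libraries. The posterior values fell within the anterior range. Its log2 fold change was 0.013 (SE 0.090), with a 95% interval from -0.20 to 0.22. Of the 3 Six-family genes analysed here, 1 fell towards the posterior palate by the test, beside 2.59% of all genes, and the median log2 fold change of the 3 was -0.43, beside -0.0040 over all genes tested.

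**Figure D1:**
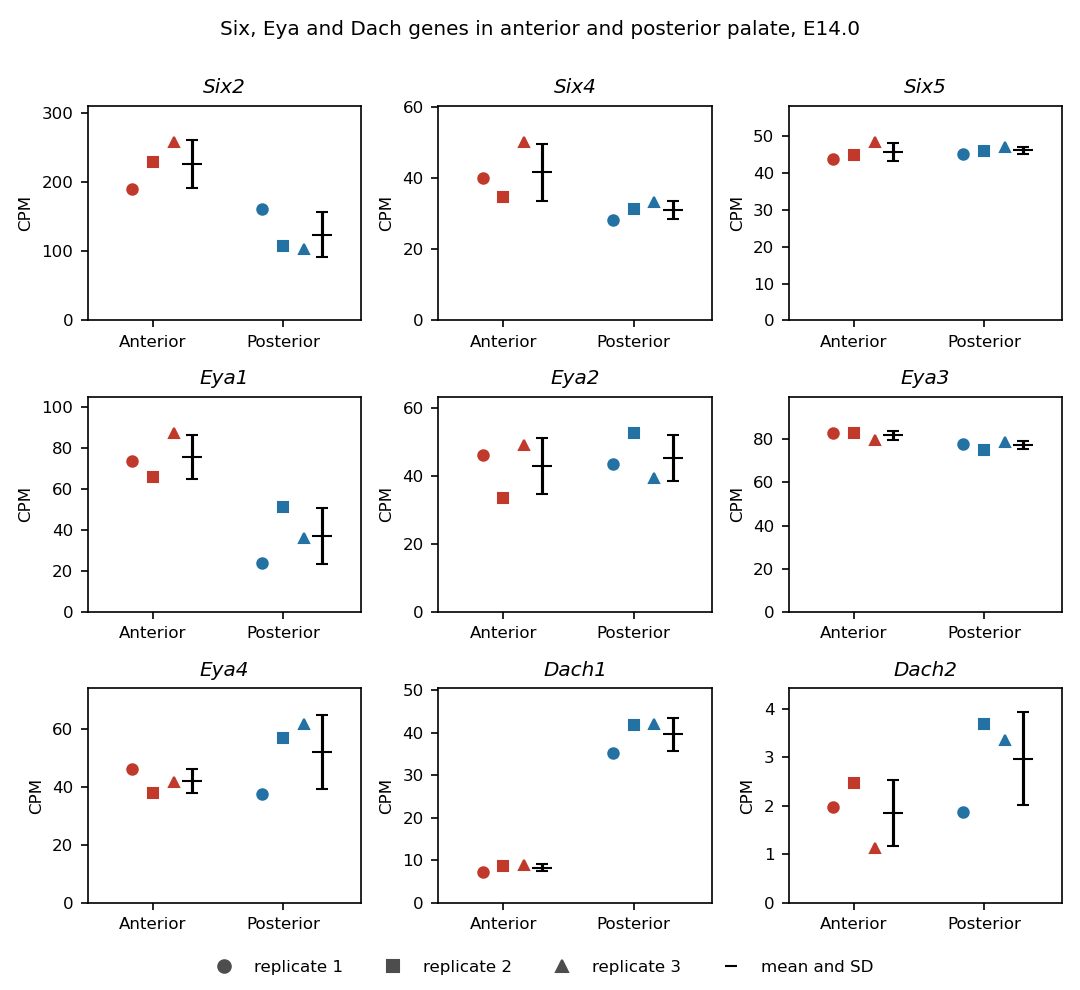
Each panel plots the level of 1 gene in CPM (counts scaled to 1000000 per library, linear axis from 0) in the 3 anterior (red) and 3 posterior (blue) libraries, with marker shapes for replicate numbers and black bars for the mean and SD. Six2 ran from 189 to 258 CPM in the anterior and from 102 to 161 CPM in the posterior palate, while Dach1 ran from 7.28 to 8.83 and from 35.2 to 42.0 CPM.

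The Eya genes encode coactivators that have no DNA-binding domain of their own and reach their targets through Six-family proteins. None of the 4 was called in edgeR over all 6 libraries with region as the only term, TMM scaling and the filter on low counts. At an unadjusted p under 0.05, 1 of the 4 passed, which was Eya1, beside 25.2% of all genes tested. The same gene was the 1 of 4 called by DESeq2, beside 12.6% of all genes, and the 1 of 4 called by limma-voom, beside 6.85%. Their median log2 fold change was -0.0042.

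Eya1, required for ear, kidney and thymus development (chr1:14168954-14310235, minus strand), had 73.6, 65.9 and 87.5 CPM in the anterior libraries. It had 23.7, 51.3 and 36.0 CPM in the posterior libraries. The regions did not overlap, and posterior replicate 1 was the lowest of the 6. The means were 75.7 ± 10.9 and 37.0 ± 13.8 CPM (SD, n = 3 each). This gave a log2 fold change of -1.03 (SE 0.26, 95% interval -1.64 to -0.42) with an adjusted p of 0.0576 in edgeR. In other fits the same counts passed the threshold, with an adjusted p of 0.00197 in DESeq2, 0.0495 in limma-voom, 0.00282 in edgeR without the filter on low counts and 0.0119 in edgeR with the length correction. With the term for posterior replicates 2 and 3, where only posterior replicate 1 stood for its region and was assumed to vary like the other libraries, the log2 fold change was -1.67 and the adjusted p in edgeR was 0.00437. Over the leave-one-out fits the log2 fold change stayed negative, from -1.34 to -0.79. Eya1 was called without posterior replicate 1, beside 46.4% of all genes, and without posterior replicate 2, beside 3.25%.

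Eya2, which cooperates with Six-family factors in muscle gene activation (chr2:165595032-165771727, plus strand), had 46.1, 33.5 and 49.1 CPM in the anterior and 43.3, 52.7 and 39.5 CPM in the posterior libraries. The regions overlapped between 39.5 and 49.1 CPM, with anterior replicate 2 below that range and posterior replicate 2 above it. A log2 fold change of 0.075 was fitted (SE 0.17, 95% interval -0.33 to 0.48).

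Eya3, an Eya phosphatase also linked to DNA damage signalling (chr4:132638987-132724765, plus strand), varied little between libraries. It had 83.1, 82.9 and 79.6 CPM in the anterior and 77.7, 75.2 and 78.9 CPM in the posterior libraries. The regions did not overlap, yet the difference was small, with a log2 fold change of -0.083 (SE 0.081, 95% interval -0.27 to 0.11).

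Eya4, whose human counterpart is a gene of late-onset deafness (chr10:23102963-23350786, minus strand), had 46.4, 38.1 and 41.9 CPM in the anterior and 37.6, 57.1 and 61.9 CPM in the posterior libraries. Posterior replicate 1 was the lowest of all 6, and the other 2 posterior libraries were the highest, so the posterior palate was split between its libraries. Over all 6 libraries the log2 fold change was 0.31 (SE 0.19, 95% interval -0.13 to 0.75) and the adjusted p in edgeR was 0.337. It was -0.16 with the term for posterior replicates 2 and 3. Without posterior replicate 1 it was 0.50 and called (adjusted p 0.00367 in edgeR), in a fit that called 46.4% of all genes.

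Dach1, the cofactor gene that opposes or tunes Six-family and Eya activity (chr14:97786853-98169765, minus strand), had the largest log2 fold change of the 9. Its counts were 96, 120 and 102 in the anterior and 470, 577 and 613 in the posterior libraries. In CPM these were 7.28, 8.72 and 8.83 against 35.2, 41.7 and 42.0. All 3 posterior libraries were far above all 3 anterior ones, and the spread within either region was small beside the gap. The means were 8.28 ± 0.862 and 39.6 ± 3.86 CPM (SD, n = 3 each). The log2 fold change was 2.26 (SE 0.14, 95% interval 1.94 to 2.58) with an adjusted p of 0.000188 in edgeR, and called genes with this direction made up 4.87% of all genes tested. It was called in every setting tried, with log2 fold changes of 2.17 to 2.34 when a library was left out and 2.09 with the term for posterior replicates 2 and 3.

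Dach2, the paralog on the X chromosome (chrX:113297510-113836386, plus strand), was the lowest of the 9, with 26, 34 and 13 counts in the anterior and 25, 51 and 49 in the posterior libraries. In CPM it had 1.97, 2.47 and 1.12 against 1.87, 3.68 and 3.36. Posterior replicate 1 lay within the anterior range. Its log2 fold change was 0.67 (SE 0.38), and the 95% interval from -0.21 to 1.54 held both directions. With the term for posterior replicates 2 and 3 it was -0.0034. Without posterior replicate 1 it was 0.91 and called (adjusted p 0.0457 in edgeR), in a fit that called 46.4% of all genes.

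**Figure D2:**
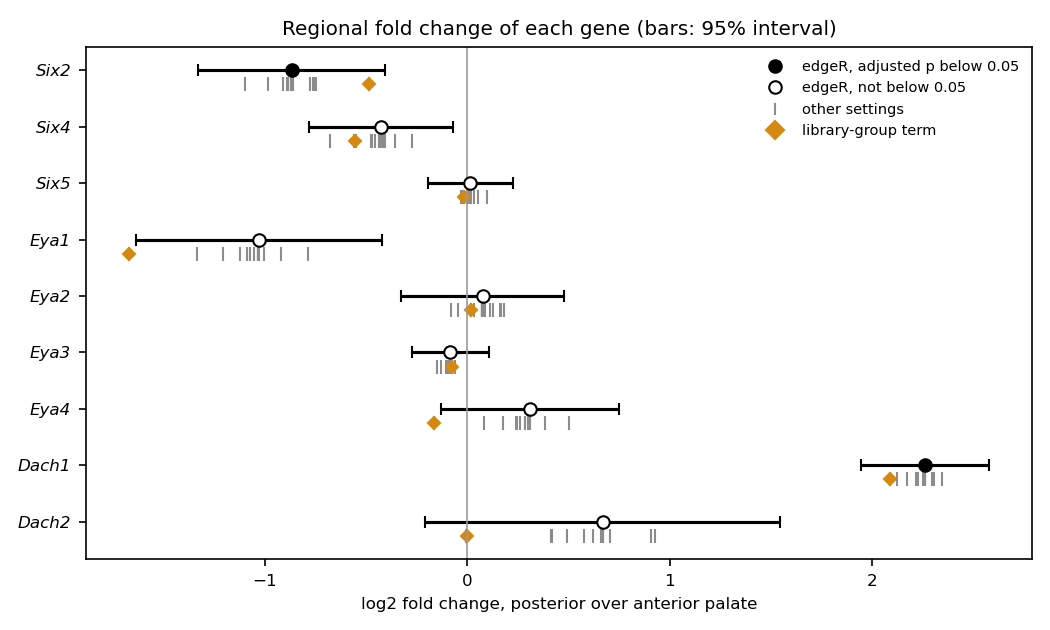
The log2 fold change of each gene, posterior over anterior palate, is plotted with its 95% interval from edgeR (filled circles: adjusted p below 0.05), and below it the value under each other setting (grey ticks) and with the term for posterior replicates 2 and 3 (orange diamonds). Dach1 stayed above 2 and Eya1 below -0.7 in every setting shown, while the values of Six5, Eya2, Eya4 and Dach2 lay on both sides of 0.

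Other fits gave other counts of the 9 genes called. DESeq2 and limma-voom each called 3, adding Eya1 to Six2 and Dach1, beside 12.6% and 6.85% of all genes. With the length correction 4 were called, beside 8.87%, and with the replicate number as a block 1 was called, beside 5.29%. With the term for posterior replicates 2 and 3, in effect posterior replicate 1 alone against the anterior libraries, the 2 called were Eya1 and Dach1, beside 7.61% of all genes. Without posterior replicate 1, 5 of the 9 were called (Six2, Eya1, Eya4, Dach1 and Dach2), beside 46.4% of all genes. That fit left only posterior replicates 2 and 3, which stood apart in technical measures. Region and these measures could not be told apart in it.

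Over the 9 genes, 5 had positive and 4 had negative log2 fold changes, with a median of 0.013. The regions did not overlap in CPM for 5 of the 9, beside 28% of all genes tested. Of these 5, the 4 genes Six2, Six4, Eya1 and Eya3 were lower in the posterior palate, and Dach1 was higher. The exact two-sided permutation test gave each of these 5 p = 0.1, which is the smallest p that 3 against 3 libraries allow, so that test could not pass 0.05 for any gene.

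Levels of different genes were compared as CPM per kilobase of exon, which corrects for the length of each gene's merged exons. Merged exons can be longer than a transcript. They held 9419 bases for Eya4, 7808 for Eya1 and 7317 for Dach1, against 3100, 4347 and 5219 in the longest coding transcript. The order of the genes given here holds for merged exons and can change with the length used. In the anterior palate Six2 was highest at 106 ± 16.4 CPM per kb (SD, n = 3). Six5 (15.2 ± 0.829), Eya3 (14.5 ± 0.347) and Eya2 (14.5 ± 2.79) followed, and neighbours among these 3 overlapped between libraries. Eya1 stood below them at 9.69 ± 1.40 CPM per kb. Eya4 (4.47 ± 0.443) and Six4 (3.84 ± 0.736) overlapped, and Dach1 (1.13 ± 0.118) and Dach2 (0.188 ± 0.0690) came last, each apart from its neighbour.

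In the posterior palate Six2 was again highest at 58.2 ± 15.3 CPM per kb, and Six5 (15.3 ± 0.328), Eya2 (15.2 ± 2.29) and Eya3 (13.7 ± 0.330) again formed the next group. The middle of the order was different. Eya4 (5.54 ± 1.37), Dach1 (5.42 ± 0.527), Eya1 (4.74 ± 1.77) and Six4 (2.86 ± 0.231) each overlapped with the next, and Dach2 was last at 0.301 ± 0.0980 CPM per kb. Among these 9 genes, Dach1 was thus below all but Dach2 in the anterior palate and overlapped with Eya4 and Eya1 in the posterior palate, where it was above Six4 in every library.

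Within a library, the share of each paralog in the summed CPM per kb of its family does not depend on scaling between libraries. It does depend on the length taken for each gene, here that of the merged exons. For these shares only the 3 Six-family genes analysed here were summed, so the shares of Six2, Six4 and Six5 refer to those 3. Six2 took 83.0%, 85.6% and 85.4% of the Six-family sum in the anterior and 81.1%, 73.5% and 72.0% in the posterior libraries. Its share was lower in all 3 posterior libraries, with a mean difference of -9.13 percentage points (84.7% ± 1.46 against 75.6% ± 4.87, SD, n = 3 each). Six5, whose own level was nearly even, had a share of 12.2% ± 1.17 in the anterior libraries, with 20.6% ± 3.93 in the posterior ones (SD, n = 3 each).

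Eya1 took 21.1%, 21.9% and 24.2% of the Eya sum in the anterior and 8.58%, 15.0% and 12.0% in the posterior libraries. The shares did not overlap between the regions. Eya2 had 33.3% ± 3.45 and 38.9% ± 3.67, Eya3 33.8% ± 3.93 and 35.2% ± 4.30, and Eya4 10.4% ± 0.735 and 14.1% ± 2.91 (SD, n = 3 each). Dach1 took 85.8% ± 4.86 of the Dach sum in the anterior palate and 94.8% ± 1.23 in the posterior palate.

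Summed levels, again by merged exon length, gave the balance between the families. The Six-family sum was 125 ± 17.6 CPM per kb in the anterior palate and 76.4 ± 14.8 in the posterior palate, and the Eya sum was 43.1 ± 4.13 and 39.2 ± 4.21. The Dach sum was 1.32 ± 0.124 and 5.72 ± 0.623 (SD, n = 3 each). The log2 ratio of Dach to Eya sums was -5.22, -4.74 and -5.13 in the anterior and -2.82, -2.85 and -2.66 in the posterior libraries. It was higher in every posterior library, by 2.25 on average. The log2 ratio of Dach to Six-family sums was -6.56 ± 0.166 in the anterior palate and -3.73 ± 0.430 in the posterior palate, a difference of 2.84. For Six-family over Eya the log2 ratio was 1.53 ± 0.235 and 0.952 ± 0.396, and the regions overlapped. In the exact two-sided permutation test over libraries, the shares of Six2, Six5, Eya1, Eya4 and the Dach genes and both Dach ratios had p = 0.1, the smallest possible here, and 0.157 after Benjamini-Hochberg adjustment over 11 tests. Six-family over Eya had an exact p = 0.2, the shares of Six4 and Eya2 had 0.3, and that of Eya3 had 0.7.

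**Figure D3:**
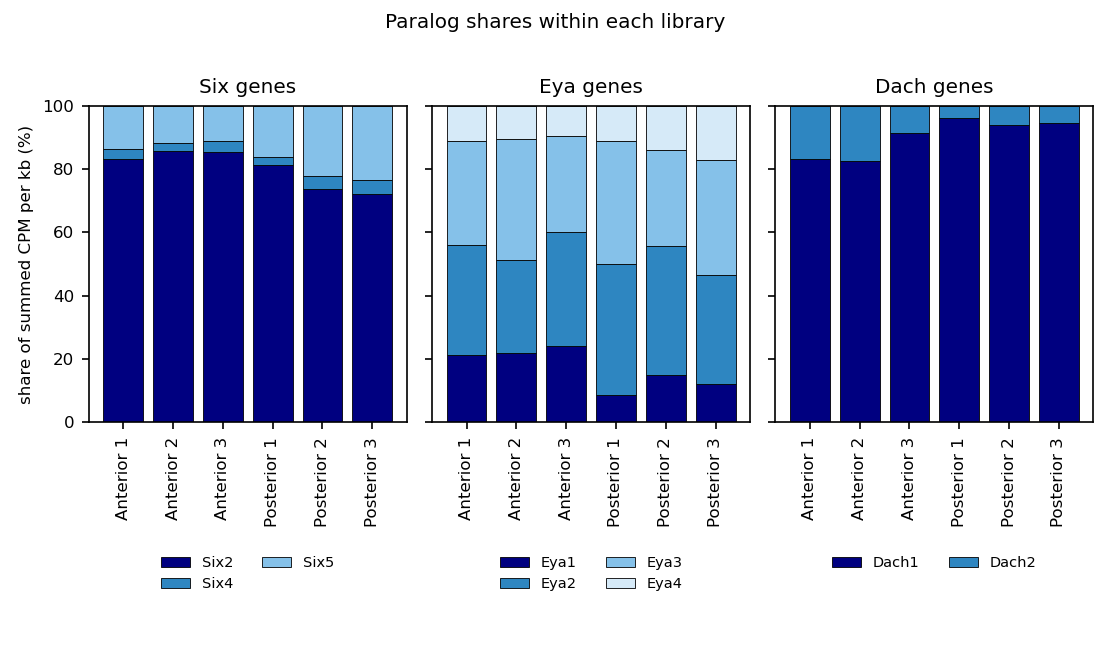
Stacked bars give the share (percent) of each gene in the summed CPM per kb of its family in each of the 6 libraries, for the 3 Six-family genes analysed, the 4 Eya genes and the 2 Dach genes. The Eya1 share was 21.1% to 24.2% in the anterior and 8.58% to 15.0% in the posterior libraries.

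Eya1 and Dach1 were set side by side after their values had been seen, because they were the coactivator and the cofactor with the largest differences in opposite directions. The ratio of Eya1 to Dach1 in CPM per kb was 9.47, 7.08 and 9.29 in the anterior and 0.632, 1.15 and 0.803 in the posterior libraries. Eya1 was thus several times the level of Dach1 in each anterior library, and the levels of the pair were near each other in each posterior library. As a pair picked for its difference, it was not tested.

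**Figure D4:**
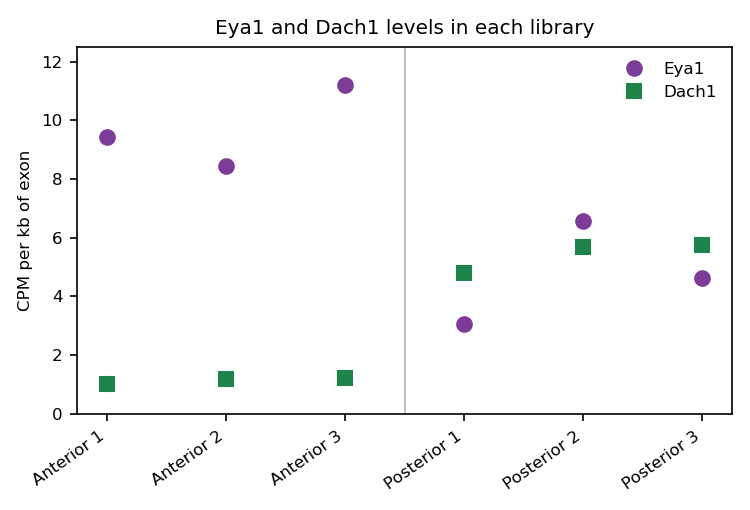
The levels of Eya1 (purple circles) and Dach1 (green squares) are plotted in CPM per kb of exon on a linear axis for each library, with a grey line between the regions. The ratio of Eya1 to Dach1 was 7.08 to 9.47 in the anterior and 0.632 to 1.15 in the posterior libraries.

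Other genes with a pattern like that of a called gene were found by the root mean square difference of centred log2 CPM over the 6 libraries, among 11865 genes. The gene nearest to Six2 was Lhx8, a LIM homeobox gene of tooth and palate mesenchyme (0.102 on the log2 scale), with means of 103 CPM in the anterior palate and 51.3 CPM in the posterior palate. The unnamed transcript Gm26645 (0.105) and Hpcal1, a neuronal calcium sensor gene (0.111), came next. The genes nearest to Dach1 were the adhesion gene Cadm2 (0.107), Brinp3 (0.152) and Tgfbi, an extracellular matrix gene (0.158). Tgfbi had means of 70.6 CPM in the anterior palate and 283 CPM in the posterior palate.

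Pax proteins act upstream of or together with Six-family and Eya proteins in several organs. Of 7 Pax genes listed, 5 were tested and 4 were called, beside 7.46% of all genes tested. Pax3, a neural crest and muscle progenitor factor, fell from 30.0 ± 2.50 CPM in the anterior to 4.89 ± 2.31 CPM in the posterior palate (log2 fold change -2.62, SE 0.31, adjusted p 0.00286 in edgeR). Pax1, a sclerotome and pharyngeal factor, rose from 1.68 ± 0.616 to 12.0 ± 0.648 CPM (2.83, SE 0.27, adjusted p 0.00114 in edgeR). Pax7, a marker of muscle progenitors and neural crest, rose from 0.761 to 5.11 CPM. Pax6, the eye determination gene, was called lower in the posterior palate, where it had 0, 1 and 2 counts against 38, 16 and 13 in the anterior libraries. Pax9, required for palate growth, had means of 135 and 197 CPM and was not called (log2 fold change 0.54, adjusted p 0.228 in edgeR). Pax6 and Pax7 reached the filter on low counts only through the region where they are high, and 2 Pax genes were called when 10 or more counts were asked of all 6 libraries.

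Groucho, Ski and histone deacetylase proteins are corepressors, several of which bind Dach or Six-family proteins. Of 13 such genes, all tested, 1 was called, a share near the 7.46% of all genes. It was Tle3, a Groucho corepressor, which fell from 117 ± 4.17 to 84.9 ± 3.27 CPM (log2 fold change -0.46, SE 0.084, adjusted p 0.0180 in edgeR). The median of the 13 was 0.036. With the replicate block, without any 1 of the anterior libraries and without posterior replicate 2, 0 of the 13 were called in edgeR, and without posterior replicate 1, 9 were, beside 46.4% of all genes. Ski, the family relative of the Dach proteins, had means of 280 and 287 CPM.

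Of 15 genes described as targets of Six-family and Eya proteins, 13 were tested, of which 2 fell and 4 rose, beside 2.59% and 4.87% of all genes. When 10 or more counts were asked of all 6 libraries 2 were called, and without posterior replicate 2 or 3 the number was 3. Myf5, Myod1, Myog and Gdnf had under 10 counts in at least 1 library of the region where they are low. Fgf10, a growth factor gene active in palate mesenchyme, fell from 30.0 ± 1.05 to 14.4 ± 1.77 CPM (log2 fold change -1.06, SE 0.13, adjusted p 0.00297 in edgeR). Gdnf, the kidney growth factor gene, had means of 3.62 and 0.761 CPM (log2 fold change -2.23, SE 0.38, adjusted p 0.0129 in edgeR). Ccnd1, the cyclin D1 gene, rose from 208 ± 28.5 to 336 ± 42.8 CPM (0.69, SE 0.14, adjusted p 0.0264 in edgeR). The other 3 that rose, Myf5, Myod1 and Myog, are myogenic regulatory factor genes that are also skeletal muscle markers. Myod1 had 1, 2 and 1 counts in the anterior and 257, 307 and 315 in the posterior libraries, and Myog had means of 0.711 and 56.0 CPM. Of 5 genes around the H2AX tyrosine phosphatase function of Eya proteins, 0 were called in edgeR, DESeq2 or limma-voom, 2 had an unadjusted p under 0.05 in edgeR (H2afx and Baz1b), beside 25.2% of all genes, and the median was 0.22. Without posterior replicate 1, 4 of the 5 were called, beside 46.4% of all genes.

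Markers of other cell types moved with region. All 10 skeletal muscle markers rose towards the posterior palate, beside 4.87% of all genes, but 6 of them (Myf5, Myod1, Myog, Myh8, Ttn and Smyd1) reached the filter on low counts only through the posterior libraries. The summed level of all 10 was 10.2 to 13.3 CPM in the anterior and 607 to 1075 CPM in the posterior libraries, the same direction as Dach1. Within the posterior palate that sum was 756, 607 and 1075 CPM, beside 35.2, 41.7 and 42.0 CPM of Dach1. Of 4 chondrocyte markers tested, 2 rose (Col2a1 and Col9a1), beside 4.87% of all genes, and the sum was 128 to 171 CPM against 516 to 659 CPM. Without Col2a1, the most abundant of them, it was 50.8 to 70.0 CPM against 86.5 to 118 CPM. The sum of the osteoblast markers was 3551, 2892 and 1959 CPM in the anterior and 291, 501 and 1816 CPM in the posterior libraries, the direction of Six2 and Eya1. Without Ibsp, the most abundant of them, that sum was 556 to 870 CPM against 273 to 537 CPM. Of the osteoblast markers, 0 of 4 were called in edgeR and 0 in limma-voom, beside 7.46% and 6.85% of all genes. DESeq2 called 3, beside 12.6%, and 3 had an unadjusted p under 0.05 in edgeR, beside 25.2%. The dental mesenchyme markers, of which Lhx8 is 1, summed to 160, 224 and 433 CPM against 193, 142 and 173 CPM. Of these, 1 of 4 was called, Lhx8 itself, beside 7.46% of all genes. In the 6 palatal mesenchyme markers, which check the labelled tissue, 1 fell (Prrx1) and 2 rose (Twist1 and Pdgfra), beside 2.59% and 4.87% of all genes. The sum was 6931 to 7971 CPM against 9534 to 12928 CPM. Without Col1a1, the most abundant of the 6, it was 2879 to 3030 CPM against 2784 to 3148 CPM.

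Of the remaining marker lists, 1 of 8 epithelial markers fell (Trp63) and 1 of 5 glial markers rose (Erbb3) in edgeR, beside 2.59% and 4.87% of all genes. DESeq2 called 2 epithelial and 1 glial markers, beside 12.6% of all genes, and limma-voom called 1 and 0, beside 6.85%. In edgeR, 0 of 5 endothelial, 0 of 5 myeloid, 0 of 4 erythroid and 0 of 4 neuronal markers were called, beside 7.46% of all genes. At an unadjusted p under 0.05 in edgeR, 1, 1, 0 and 2 of them passed, beside 25.2% of all genes. DESeq2 called 1, 0, 0 and 1 of these, beside 12.6% of all genes, and limma-voom called none of them, beside 6.85%. The neuronal sum was 239 CPM in posterior replicate 2 and 16.4 to 39.4 CPM in the other 5 libraries. No marker was at 0 in all 6 libraries. The part of these cell types in the values of the Six-family, Eya and Dach genes was not tested.

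Reads on the opposite strand were 0% to 3.07% of the counts of the 9 genes in any library, beside 4.15% to 5.01% over all genes. Annotated genes that overlap them were 6 at 4 of the 9, and the most counted of these, Gm37444 within Eya1 on the same strand, had 33 counts over the 6 libraries. Dmpk ends 772 bases before Six5 on the same strand.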

How the data were processed

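Tissue from the anterior and posterior palate of E14.0 mice was sequenced as 6 bulk RNA-seq libraries, 3 per region. Per library, the authors deposited a table of raw read counts by gene, unstranded and for each strand. The study's methods name HISAT2, mm10, StringTie and DESeq2 (1.30.1), while the deposited tables are laid out as STAR writes gene counts, and the annotation version is not given in the sources used here. The reverse-stranded counts were used because they exceeded the forward counts at least 18.95-fold in every library. Reads not assigned to a gene (multimapping, unmapped, no feature) stayed out of library sizes and tests, at 5.94% to 8.77%, 2.71% to 4.65% and 5.92% to 8.71% of reads.

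A gene was tested where 3 or more libraries held 10 or more counts. Region was the only term of the quasi-likelihood test in edgeR 4.0.16 (R 4.3.3), after TMM scaling. P-values were adjusted by Benjamini-Hochberg over all 15673 genes and called under 0.05. CPM used TMM-scaled library sizes (factors 0.963 to 1.02). Fits with DESeq2 1.42.0 and limma 3.58.1 (voom), other normalizations and filters, unstranded counts, a replicate block, a term for the 2 libraries with the fewest multimapping reads, a correction for exon length and each library left out were alternatives. The fits were tested on simulated data. Symbols, exon lengths and coordinates came from GENCODE M21 (GRCm38), which paired 52073 of the 56691 identifiers with a symbol, 35 of them in the same version. Promoters came from RefSeq.

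The genes, the lists and the alternatives were chosen with earlier results of these data known. Text names the 9 genes, the genes of the pathway lists that were called (at most 6 per list, any in a count of 5 or fewer), the 3 genes nearest in pattern to each called gene (mean CPM at least 5, pseudocount 0.5), at most 3 genes per marker list, and some genes chosen after their values were seen (Pax9, Ski, H2afx, Baz1b and called markers). P-values of the fits compare the region difference with the spread between these libraries, which is estimated partly from other genes. Intervals of log2 fold changes used the t distribution with the fitted degrees of freedom.

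Replicate numbers were checked for pairing by the correlation of deviations from the region means, which was -0.0527, 0.045 and 0.0355. This check cannot exclude pairing, because the gap between posterior replicate 1 and the other posterior libraries could hide it. The results of some related genes are not reported here. Protein sequences were not used here.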

Additional observations from a re-analysis of the deposited data

How the results depend on the processing

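Dach1 kept its direction and its call in every alternative tried, and Six2 and Eya1 kept their direction. Over all genes tested, 1169 were called (406 with higher anterior and 763 with higher posterior levels), 1978 with DESeq2 (637 and 1341), 2162 without the filter on low counts (646 and 1516), and 498 to 7119 when a library was left out (140 to 3242 and 312 to 3877), the 7119 being without posterior replicate 1. Of the 9 genes, 2 were called, 4 with the length correction and 1 to 5 when a library was left out, 5 without posterior replicate 1.

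Whether libraries with the same replicate number came from the same embryos is not known. The replicate block left 237 genes with a called higher anterior level, 1 of the 9 genes, 0 of the cofactors, and Six2 at -0.89 (adjusted p 0.0808 in edgeR).

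Six2 was -0.49 with the term for posterior replicates 2 and 3, and -0.49 with posterior replicate 1 alone against the anterior libraries, a fit added after seeing the data in which the lone library is assumed to vary like the others; with a library left out it was -1.10 to -0.75. Six4 was -0.68 with the length correction, and -0.55 to -0.27 with a library left out, the -0.27 being without anterior replicate 3. Six5 was -0.032 with library size only, -0.015 with the term, -0.017 against posterior replicate 1 alone, and -0.020 to 0.054 with a library left out. Eya1 was -1.04 with DESeq2, -1.09 with limma-voom, -1.03 without the filter, -1.67 with the term, -1.21 with the length correction, -1.67 against posterior replicate 1 alone, and -1.34 to -0.79 with a library left out. Eya2 was -0.079 to 0.18 with a library left out, negative without anterior replicate 2 or posterior replicate 2. Eya4 was -0.16 with the term, -0.17 against posterior replicate 1 alone, and 0.17 to 0.50 with a library left out. Dach2 was -0.0034 and -0.0074 in the same fits, and 0.42 to 0.93.

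Pax genes called were 2 under the stricter filter (10 or more counts in all 6 libraries), and 3 to 4 with a library left out. Cofactors called were 2 with DESeq2, without the filter and with the length correction, and 0 to 9 with a library left out. Targets called were 2 under the stricter filter, and 3 to 6 with a library left out, and H2AX genes called were 0 to 4. With the term, the marker medians were -0.79 (anterior and posterior palate), 5.96 (muscle), -0.32 (endothelium), 0.036 (myeloid), 0.16 (erythroid), 1.26 (chondrocyte) and -1.74 (osteoblast). The muscle median was 6.80 with limma-voom, 6.22 under the stricter filter and 6.12 with the length correction. With a library left out, medians ran from 0.36 to 0.58 (mesenchyme), 6.17 to 6.76 (muscle), -0.29 to 2.38 (neuron), -0.25 to 0.012 (glia) and -0.80 to -0.19 (erythroid). With raw counts in place of counts per kilobase, the posterior minus anterior difference in share was 2.42 (Six4), -14.0 (Eya1) and 7.08 (Eya4) percentage points. The cause of these changes was not tested. Dach2 had the lowest counts of the 9 genes, 13 to 51 per library.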
